A study of Mus musculus with 2 samples.

Results

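The 6 genes of the tendon and myotendinous matrix described here were measured in aged mouse thigh muscle: Fmod, Chad, Thbs4, Comp, Tnc and Col12a1. They were taken by symbol from a fixed list, chosen with earlier results of these data known. Of the list, 6 of 6 were present among the 10543 genes with a single symbol, each at 1 locus. The muscle came from mice of the hybrid strain B6C3F1 that were 26 months old. The calorie restriction (CR) group ate about 40% fewer calories for 25 months on a diet enriched to keep protein, vitamin and mineral intake per body weight near that of controls, and the control group ate the control diet. Poly(A) RNA was sequenced in 1 library per group, so no difference has a replicate check and no p-value can be given, and the number of mice behind each library is not stated in the labels. Values are listed as FPKM, fragment counts scaled to transcript length and to the size of the library. How that size was taken is not known, and over all loci the CR values sum to 1.36e+07 FPKM. The median gene stood at 223 FPKM in CR and 222.6 FPKM in control, so each level is to be read against that median. Each log2 ratio sets CR over control after adding 1 to both FPKM values, so that differences of weakly expressed genes are understated. The depth of the libraries is unknown.

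Muscle force passes to bone through the myotendinous junction, where the fibre membrane folds into the collagen of the tendon. The matrix there is built on type I collagen fibrils, and the proteins described here bind to or bridge those fibrils. Fibromodulin (Fmod) and chondroadherin (Chad) are leucine-rich repeat proteins that bind collagen, and fibromodulin sets the thickness of tendon fibrils. Thrombospondin 4 (Thbs4) and cartilage oligomeric matrix protein (Comp) belong to the thrombospondin family and form pentamers that hold matrix proteins together. Tenascin-C (Tnc) is a large glycoprotein of tendon and junction that is produced under mechanical load, and Col12a1 encodes the chain of type XII collagen, which sits on the surface of fibrils.

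The stretches before the transcription starts of Tnc and Chad, listed at 0 in the CR library, are shown beside those of Fmod and Thbs4, above 0 in both libraries. These 4 genes are too few to compare genes at 0 with genes above 0, and the link of any motif to the levels was not tested. Each is the 250 bases before the outermost start, from RefSeq on GRCm38.p6, a later build than that of the FPKM table; 4 of the 6 genes matched, and Comp and Col12a1 are not shown. Capitals mark every match, on either strand, to TATAAA (the TATA box), CANNTG (the E-box, which basic helix-loop-helix factors such as scleraxis bind), TGANTCA (the AP-1 motif) and GCGNGGGCG (the motif of the Egr factors), and no match overlaps another.
Fmod (chr1:134037004-134037253, plus strand): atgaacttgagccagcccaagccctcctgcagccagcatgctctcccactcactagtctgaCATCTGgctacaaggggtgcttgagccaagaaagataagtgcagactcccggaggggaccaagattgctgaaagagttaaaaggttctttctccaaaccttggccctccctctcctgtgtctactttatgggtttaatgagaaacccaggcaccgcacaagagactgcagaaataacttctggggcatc
Chad (chr11:94564797-94565046, plus strand): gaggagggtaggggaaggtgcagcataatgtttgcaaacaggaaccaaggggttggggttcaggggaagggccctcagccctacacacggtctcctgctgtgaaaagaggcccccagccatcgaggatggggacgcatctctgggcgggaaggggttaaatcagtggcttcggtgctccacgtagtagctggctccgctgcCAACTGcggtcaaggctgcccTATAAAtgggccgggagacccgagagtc
Thbs4 (chr13:92794819-92795068, minus strand): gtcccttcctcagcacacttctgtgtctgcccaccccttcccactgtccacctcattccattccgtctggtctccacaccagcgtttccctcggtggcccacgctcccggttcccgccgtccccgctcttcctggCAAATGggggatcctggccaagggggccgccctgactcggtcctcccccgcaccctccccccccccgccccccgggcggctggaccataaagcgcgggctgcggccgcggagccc
Tnc (chr4:64047016-64047265, minus strand): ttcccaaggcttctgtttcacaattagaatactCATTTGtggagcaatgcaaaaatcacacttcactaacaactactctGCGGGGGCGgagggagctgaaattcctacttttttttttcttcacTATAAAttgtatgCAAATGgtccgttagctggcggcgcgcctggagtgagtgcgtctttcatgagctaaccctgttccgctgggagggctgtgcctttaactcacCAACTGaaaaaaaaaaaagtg
TATAAA was found before Chad, 28 to 23 bases ahead of the start, and before Tnc, 126 to 121 bases ahead, and 12.4% of all 32851 regions of this length hold it. CANNTG was found once before Fmod, once before Chad, once before Thbs4 and 3 times before Tnc, and 66.2% of all regions hold it. GCGNGGGCG was found once, before Tnc, against 4.70% of all regions, and TGANTCA in none of these 4, against 6.75%. The GC content was 51.2% for Fmod, 60.4% for Chad, 70.8% for Thbs4 and 44.8% for Tnc, beside a median of 52.4% over all regions. These are matches of letters and say nothing of binding.

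All 6 genes were listed lower in the CR library than in the control library. The 6 were chosen with earlier results of these data known, so the counts and medians that follow describe them and are no independent support. Of the 6, 5 were lower by 2-fold or more, 0 were higher by 2-fold or more and 1, Thbs4, lay between. Over the 10533 genes that averaged 1 FPKM or more, which include all 6, 10.7% were lower in CR by 2-fold or more and 8.01% were higher by as much. Of the 5 lower genes, Fmod and Comp were above 0 in both libraries. Tnc, Chad and Col12a1 were listed at 0 in the CR library, as were 4.27% of the 10533 genes. Zeros were more common in the CR library, with 4.34% of all 10543 genes at 0 there and 2.34% in control. Because some listed zeros may be estimates that failed, these 3 have no fold. The median log2 ratio of the 3 genes above 0 in both was -1.18, beside -0.02 over the 9846 genes above 0 in both. With the genes listed at 0 the median of the 6 was -3.64, a value that the added 1 FPKM sets, beside -0.03 over the 10533 genes. Summed over the 6 genes, with listed zeros taken as 0, the level was 896 FPKM in the CR library and 1923 FPKM in the control library. The control sum was 2.15 times the CR sum. Fmod and Thbs4 supplied 93.8% of the sum in CR and 73.1% in control.

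**Figure D1:**
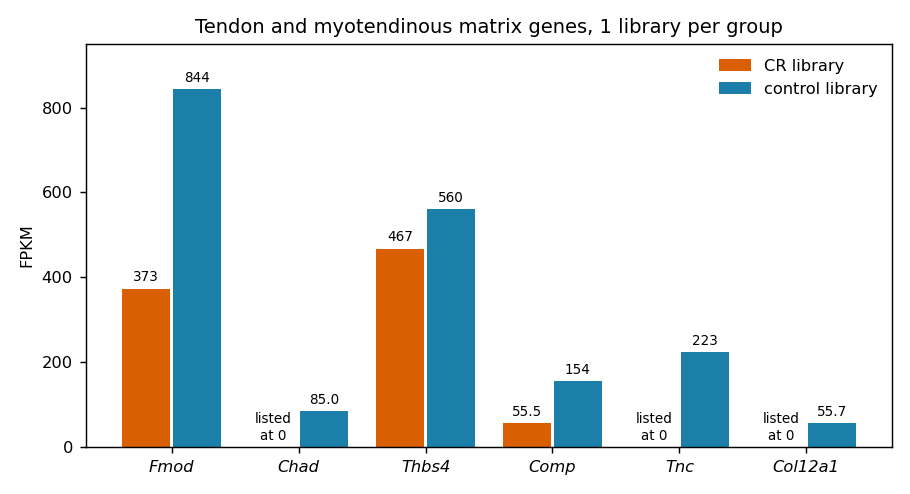
FPKM (vertical axis, from 0) of the 6 genes in the CR library (left bar of each pair) and the control library (right bar), 1 library per group and so without error bars. Tnc, Chad and Col12a1 were listed at 0 in CR, and Thbs4 stood closest, at 467 FPKM in CR and 560.4 FPKM in control.

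Of the leucine-rich repeat proteins, Fmod (chromosome 1, 135933971 to 135944854, plus strand, in mm9, the build of all coordinates from the FPKM table) stood at 373 FPKM in the CR library and 844 FPKM in the control library. The control level was the highest of the 6 genes. Its log2 ratio was -1.18, 2.26-fold lower in CR. Fmod exceeded 68.5% of all genes in the CR library and 89.0% in the control library. Chad (chromosome 11, 94426343 to 94430441, plus strand) was listed at 0 in the CR library and at 85.0 FPKM in the control library. The whole of its locus lies inside that of Acsf2, an acyl-CoA synthetase gene on the opposite strand, which stood at 57.4 FPKM in CR and 21.5 FPKM in control. The library kit did not record strand as described in the labels, so reads of Chad and Acsf2 cannot be told apart where their exons overlap, and the Chad values are uncertain.

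Of the thrombospondins, Thbs4 (chromosome 13, 93521541 to 93564773, minus strand) stood at 467 FPKM in the CR library and 560.4 FPKM in the control library. The levels lay close together, with a log2 ratio of -0.26, 1.2-fold lower in CR. Thbs4 is made in muscle as well as in tendon. Comp (chromosome 8, 72897447 to 72905965, plus strand) stood at 55.5 FPKM in the CR library and 154 FPKM in the control library. Its log2 ratio was -1.46, 2.75-fold lower in CR, the largest difference among the 3 genes above 0 in both. Within a library, where no scaling between libraries enters, Thbs4 was 8.42 times Comp in CR and 3.63 times Comp in control.

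Of the bridging proteins, Tnc (chromosome 4, 63620819 to 63708049, minus strand) was listed at 0 in the CR library and at 223 FPKM in the control library. The control value was the third among the 6 genes and close to the median gene of that library (222.6 FPKM). Col12a1 (chromosome 9, 79446798 to 79566485, minus strand) was listed at 0 in the CR library and at 55.7 FPKM in the control library, the lowest control level of the 6. Only 14.9% of all genes lay below it in the control library. Together Tnc, Chad and Col12a1 made up 18.9% of the summed control level of the 6 genes. No locus of another named or unnamed gene overlapped those of Tnc, Col12a1, Fmod or Comp.

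The order of the 6 levels differed between the libraries. In the CR library Thbs4 was highest, then Fmod and Comp, with the other 3 genes listed at 0. In the control library Fmod was highest, followed by Thbs4, Tnc, Comp, Chad and Col12a1. Fmod was 0.799 times Thbs4 in CR and 1.51 times Thbs4 in control. Without replicates it cannot be said which neighbours in these orders differ beyond the spread between samples. The most similar values to those of Fmod, by Euclidean distance over log2(FPKM + 1) in the 2 libraries among 9887 genes, were those of Hspb1 (distance 0.04) and Usp14 (0.07). Those most like Thbs4 were Ndrg3 (0.01) and Kctd15 (0.02), and those most like Comp were Scyl3 and Naf1 (0.04 each). With 2 libraries such likeness only says that level and ratio are alike.

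**Figure D2:**
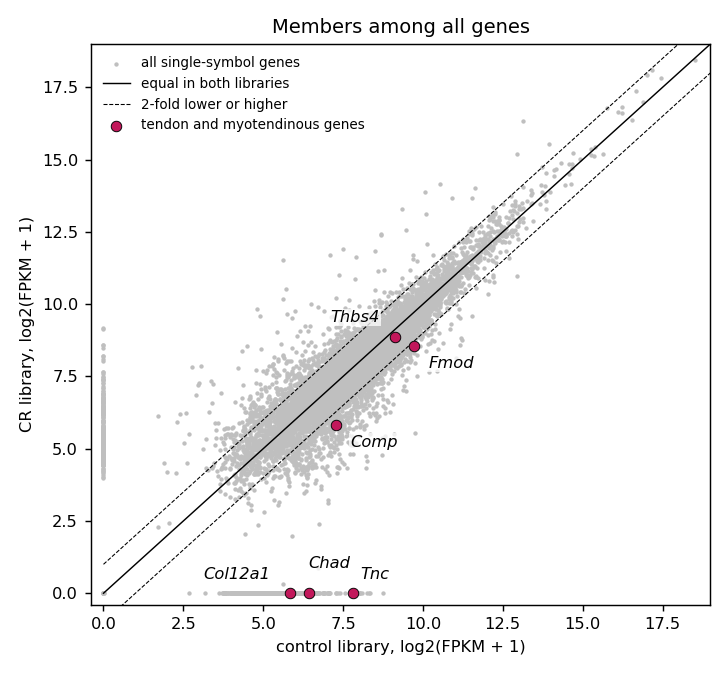
Level of each of the 10543 genes as log2(FPKM + 1) in the CR library (vertical axis) against the control library (horizontal axis), with the 6 tendon and myotendinous genes in colour. Fmod and Comp lie below the dashed 2-fold line, Thbs4 lies near the line of equality, and Tnc, Chad and Col12a1 lie on the row of genes listed at 0 in CR.

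The share of genes listed at 0 in the CR library varied with the control level. Over all 10533 genes 450 were at 0. Before the filter on the mean, 458 genes were at 0 in CR and 247 in control. Among the 3017 genes with a control level above 100 and up to 250 FPKM, the range that holds Tnc, 27 were listed at 0 in CR (0.895%). Among the 1275 genes above 50 and up to 100 FPKM, the range of Chad and Col12a1, 101 were (7.92%). The lowest 1% of CR values above 0 ended at 16.8 FPKM, so few genes filled the gap between 0 and that level. By the longest transcript in GENCODE M21, found for 90.6% of genes, the share listed at 0 in CR was 4.52% for transcripts up to 2000 bases, which include Chad (1680 bases), 5.06% for those above 7000 and up to 10000 bases, which include Tnc (7106), and 3.04% for those above 10000, which include Col12a1 (11511).

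**Figure D3:**
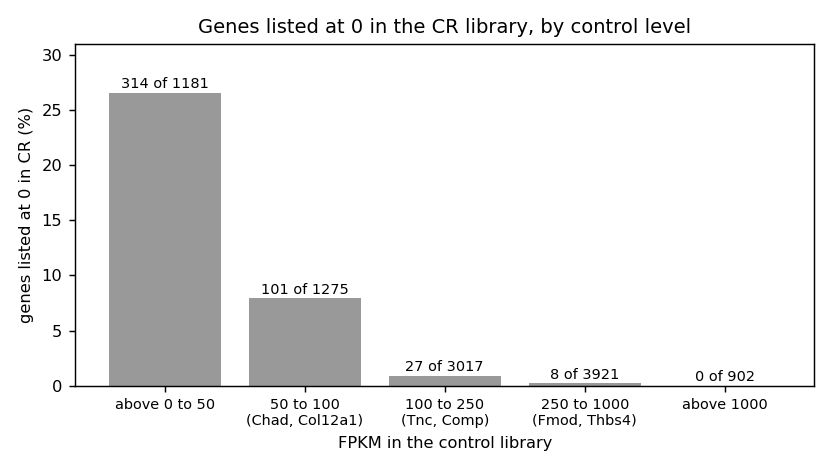
Share of genes listed at 0 in the CR library (vertical axis, in %) by range of FPKM in the control library (horizontal axis), with the number of genes above each bar and the 6 genes named under their range. The share was 26.6% for genes up to 50 FPKM and 0.895% in the range that holds Tnc.

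The Thbs4 locus overlapped 9 unnamed loci, all listed on the opposite strand and 103 to 2531 bases long. Their FPKM ran from 0 to 363, with a median of 16.2, in the CR library, and from 58.3 to 522, with a median of 105, in the control library. Of the 9, 8 were lower in CR, 6 of them by 2-fold or more, 0 were higher by 2-fold or more and 3 were listed at 0 in CR. Over the 12074 unnamed loci that averaged 1 FPKM or more, 32.5% were lower in CR by 2-fold or more and 20.1% were listed at 0 there. Since strand is not marked, reads of these loci cannot be told apart from reads of Thbs4.

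Other genes of tendon, junction and matrix were taken from 10 lists, 102 distinct genes in all outside the 6. Of these, 19 (18.6%) were lower in CR by 2-fold or more, 9 (8.82%) were higher by as much and 74 lay between, beside 10.7% lower and 8.01% higher over all genes tested, the shares against which the counts of each list that follows stand. Their median log2 ratio was -0.15, beside -0.03 over all genes tested.

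Tendon cell markers were divided. Of 12 measured, 5 were lower in CR by 2-fold or more, 1 was higher by as much and 6 lay between, and the median log2 ratio was -0.93. Thbs2, a thrombospondin that influences collagen fibril assembly, stood at 74.1 FPKM in CR and 367 FPKM in control, 4.91-fold lower in CR. The fibrillar collagen Col11a2 stood at 25.3 FPKM in CR and 115 FPKM in control. Scx, scleraxis, the transcription factor that specifies the tendon lineage, stood at 24.3 FPKM in CR and 62.3 FPKM in control. Its locus overlaps that of Bop1 on the opposite strand, so its values are uncertain. The CR values of Scx and Col11a2 lay among the lowest 5% of CR values above 0, which ended at 31.1 FPKM. The mature tendon cell protein tenomodulin, Tnmd, stood at 78.0 FPKM in CR and 68.9 FPKM in control, within 2-fold. Egr1, an immediate early factor that also acts in tendon, was the higher one, at 112 FPKM in CR and 48.2 FPKM in control. The secreted protein Angptl7 stood at 152 FPKM in CR and 475 FPKM in control, and its locus overlaps that of Mtor on the opposite strand. In bulk tissue, fewer cells of a type and less RNA per cell cannot be told apart, which holds for all genes described here.

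Among junction genes, those past 2-fold were all lower in CR. Of 12 measured, 6 were lower in CR by 2-fold or more, 0 were higher by as much and 6 lay between, and the median log2 ratio was -0.69. Col22a1, the collagen found at the myotendinous junction, stood at 27.0 FPKM in CR and 211 FPKM in control, 7.57-fold lower in CR. That CR value also lay among the lowest 5% of CR values above 0 (up to 31.1 FPKM), so the fold is uncertain. Lama2, the laminin chain of the fibre's basement membrane, stood at 552 FPKM in CR and 1245 FPKM in control. The stretch-responsive Ankrd1 stood at 450.1 FPKM in CR and 2361 FPKM in control and Ncam1, a neural cell adhesion molecule, at 148 FPKM in CR and 307 FPKM in control; both are among the 6 lower junction genes and both belong to the denervation list. The integrin chain Itga7, a laminin receptor of the junction, stood at 412 FPKM in CR and 397 FPKM in control, with a locus that overlaps Mettl7b on the opposite strand, and Vcl, vinculin, at 665 FPKM in CR and 449 FPKM in control. Ldb3, a Z-disc protein, was the most abundant gene of the list, at 11310.5 FPKM in CR and 13017 FPKM in control.

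The relatives of the 6 genes did not share one direction. Of the other tenascins and thrombospondins measured, 1 of 4, Thbs2, was lower in CR by 2-fold or more and 3 lay between. Tnxb, the tenascin of loose connective tissue, stood at 1354 FPKM in CR and 1318 FPKM in control, and its locus overlaps the merged locus of C4a and C4b on the opposite strand. Of 9 other small leucine-rich proteoglycans, 0 were lower in CR by 2-fold or more, 1 was higher by as much and 8 lay between, and the median log2 ratio was 0.31. Lumican, Lum, which binds the same region of collagen as fibromodulin, stood at 570.2 FPKM in CR and 128 FPKM in control, 4.41-fold higher in CR. Decorin, Dcn, stood at 3098 FPKM in CR and 1902 FPKM in control. Within a library, Fmod was 0.655 times Lum in CR and 6.58 times Lum in control, and 0.120 times Dcn in CR and 0.444 times Dcn in control; these pairs were chosen after their values were seen. Of the other fibril-associated collagens, 3 were measured, with a median log2 ratio of -2.92 (-1.09 without the gene listed at 0): Col22a1 was lower, Col19a1 was listed at 0 in CR and 75.4 FPKM in control, and Col14a1 stood at 89.0 FPKM in CR and 53.2 FPKM in control.

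The fibrillar collagens, to which these proteins bind, included genes past 2-fold in both directions. Of 7 measured, 3 were higher in CR by 2-fold or more, 1, Col11a2, was lower by as much and 3 lay between, and the median log2 ratio was 0.43. Col1a1, a chain of type I collagen, stood at 564 FPKM in CR and 245 FPKM in control. Its partner chain Col1a2 stood at 549 FPKM in CR and 445 FPKM in control. Comp was 0.0985 times Col1a1 in CR and 0.631 times Col1a1 in control, and Thbs4 was 0.830 times Col1a1 in CR and 2.29 times in control, again pairs chosen after their values were seen. Collagen processing enzymes had as many genes past 2-fold in each direction, with 2 of 17 higher in CR by 2-fold or more and 2 lower by as much (median log2 ratio -0.17). The crosslinking enzyme lysyl oxidase, Lox, stood at 129 FPKM in CR and 323 FPKM in control, 2.50-fold lower in CR. Leprel1, of the same list, stood at 42.0 FPKM in CR and 19.2 FPKM in control, 2.13-fold higher in CR.

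Of the receptors, proteases and regulators measured, 37 of 44 (84.1%) lay within 2-fold, near the 81.3% of all genes tested. Of 15 matrix receptors 1 was lower in CR by 2-fold or more, the collagen-binding integrin chain Itga1 (59.4 FPKM in CR and 172 FPKM in control), whose locus overlaps that of Pelo, and 1 was higher by as much, the growth factor receptor Egfr (501 FPKM in CR and 222 FPKM in control). All 7 matrix proteases and inhibitors lay within 2-fold, with a median of 0.22. Of 22 regulators in the TGF-beta and mechanical list, 4 were lower in CR by 2-fold or more and 1 was higher by as much, and the median log2 ratio was -0.33. Gdf5, a growth factor of joint and tendon development, stood at 21.0 FPKM in CR and 97.5 FPKM in control, and the homeobox factor Six2 at 12.5 FPKM in CR and 82.5 FPKM in control. Smad7, an inhibitor that TGF-beta induces, stood at 57.4 FPKM in CR and 185 FPKM in control, and Cyr61, a matrix protein induced by stretch, at 279.7 FPKM in CR and 642 FPKM in control. Fgf2 was the higher one, at 69.3 FPKM in CR and 2.29 FPKM in control, and its locus overlaps that of Nudt6 on the opposite strand by 827 bases.

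**Figure D4:**
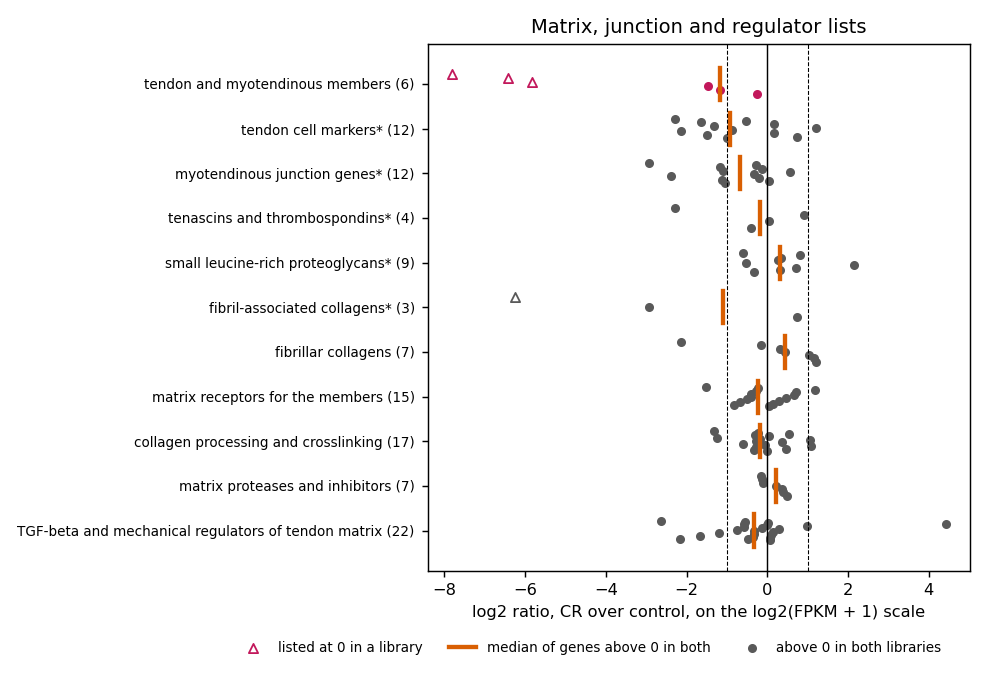
Log2 ratio of CR over control (horizontal axis) for each measured gene of the 6 and of 10 related lists (rows, with the number of genes measured; an asterisk marks lists without the 6). Filled points are genes above 0 in both libraries, triangles genes listed at 0 in a library, bars the median of the filled points, and dashed lines 2-fold; the median of the tendon cell markers was -0.93 and that of the small leucine-rich proteoglycans 0.31.

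Markers of other cells, given beside the 6 genes, differed in direction from list to list. Of 15 fibroblast markers, 5 were higher in CR by 2-fold or more, 0 were lower by as much and 10 lay between, and the median log2 ratio was 0.70. Their summed level was 10047 FPKM in CR and 6313 FPKM in control. Pdgfra, a receptor of fibroblasts and their progenitors, stood at 275 FPKM in CR and 192 FPKM in control, and the matrix protein periostin, Postn, at 187 FPKM in CR and 38.6 FPKM in control. White adipocyte markers summed to 47510 FPKM in CR and 25773 FPKM in control, with 11 of 15 higher in CR by 2-fold or more and Adrb3 listed at 0 in control. Car3, within 2-fold at 17548 FPKM in CR and 14545 FPKM in control, was the largest single part of both sums. The median log2 ratio of the list was 1.93. Slow fibre markers summed to 135634 FPKM in CR and 16431 FPKM in control, with 10 of 10 higher in CR by 2-fold or more. In the denervation list, 10 of 12 genes were lower in CR by 2-fold or more, with a summed level of 2676 FPKM in CR and 8983 FPKM in control. Chrng of this list was listed at 0 in CR. Fast fibre markers, which check the labelled tissue, were abundant in both libraries, with Mylpf at 283395 FPKM in CR and 146936 FPKM in control. None of 14 cartilage markers, among them Acan and Col2a1, was among the genes analysed here. The part that tissue makeup plays in the values of the 6 genes was not tested.

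**Figure D5:**
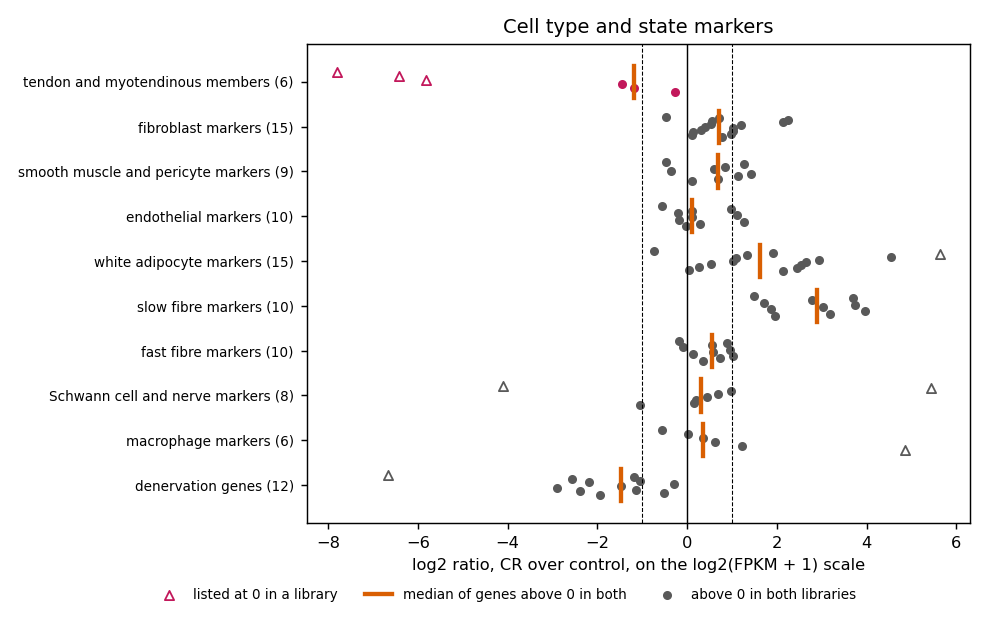
Log2 ratio of CR over control (horizontal axis) for the 6 genes and for markers of other cell types and of denervation (rows, with the number of genes measured). Filled points are genes above 0 in both libraries, triangles genes listed at 0 in a library, bars the median of the filled points, and dashed lines 2-fold; fibroblast markers had a median of 0.70 and slow fibre markers 2.90.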

How the data were processed

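Poly(A) RNA from thigh muscle was made into paired-end libraries (10 µg of total RNA, fragments near 200 nt, 76 bp reads), per the labels' protocols. Per the submitters' processing notes, TopHat 1.2.0, Cufflinks and Cuffdiff were run against mm9; nothing used here states their options or annotation. FPKM per locus were deposited by the authors, per the file headers, for 23672 loci, 10782 of them named. The lowest value is 1, and the digits of the values show that 1 had been added: in the CR column 100 of 108 values between 1 and 2 carry more than 6 significant digits, against 0 of 75 between 2 and 3. So 1 was subtracted, an inference from the digits.

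Loci with a single symbol were kept and loci of a symbol summed. Log2 ratios used FPKM + 1 with no further scaling. Counts past 2-fold are over genes averaging 1 FPKM or more, a filter that kept 10533 of 10543 genes. With 1 library per group no test was run. The scripts were tested on simulated data. Alternatives changed the pseudocount, the filter, the scaling and the locus used. The text names all 6 genes and, of each related list, its most abundant gene and up to 3 genes with the largest ratios; of these not all are printed. Itga7, Vcl, Scx, Tnmd, Egr1, Smad7, Cyr61, Pdgfra and, among the junction genes, Ncam1 were named after their values were seen. The 6 genes and the lists were chosen with earlier results of these data known, and 1 further denervation gene is not reported here and enters none of the counts. Python 3.11.15, numpy 2.4.6, pandas 2.3.3 and matplotlib 3.10.9 were used.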

Additional observations from a re-analysis of the deposited data

How the results depend on the processing

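Fmod, Comp and Thbs4 kept their direction and their side of 2-fold under every alternative run, with log2 ratios from -1.25 to -1.14 for Fmod, -1.53 to -1.40 for Comp and -0.33 to -0.23 for Thbs4. The median over the 6 genes, -3.64, was -5.30 with a pseudocount of 0.1 FPKM, -2.50 with 5 FPKM, -1.32 with only genes averaging 100 FPKM or more, which leaves out Chad and Col12a1, and -1.18 without genes listed at 0, a setting added after the data were seen. Of the 6 genes, the number lower by 2-fold or more, 5, was 3 with the filter at 100 FPKM, which Chad and Col12a1 did not pass. Tnc, at 0 in CR, passed it only through its control value of 223 FPKM. Without genes listed at 0 the number was 2 of 3. With the filter at 100 FPKM 417 genes were lower in CR by 2-fold or more and 390 higher by as much. The share of all genes past 2-fold was not computed for these settings, so the counts have none beside them. The median of the other fibril-associated collagens, -2.92, was -1.09 without genes listed at 0. Of 260 values recomputed, 245 stayed within 1.5 times of the reported ones, taken on the unlogged fold for log2 ratios and medians, 15 moved further and 0 of those past 2-fold reversed. On the log2 scale small medians could move by a larger share: with only genes averaging 100 FPKM or more, that of junction genes was -0.33 against -0.69, that of tenascins and thrombospondins -0.41 against -0.19 and that of macrophage markers 0.02 against 0.49. Leaving out a library was not possible with 1 per group. No paired analysis was possible because each group has 1 library. The depth of the libraries is unknown, so no counting error can be given and a value of 0 has no upper limit.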

Other observations

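Markers of vessel, nerve and macrophage cells in the same tissue lay closer to equality than those of fat or slow fibres: the median log2 ratio was 0.69 for smooth muscle and pericyte, 0.10 for endothelial, 0.32 for Schwann cell and nerve and 0.49 for macrophage markers, against 1.93 for white adipocyte and 2.90 for slow fibre markers; fast fibre markers had 0.56 and denervation genes -1.71. The counts given next stand beside 8.01% of all genes tested higher in CR by 2-fold or more and 10.7% lower. Of 9 smooth muscle and pericyte markers, 3 (33.3%) were higher in CR by 2-fold or more and 6 lay within 2-fold. Among the higher was smooth muscle myosin, Myh11 (463 FPKM in CR and 171 FPKM in control). Of 10 endothelial markers, 2 were higher in CR by 2-fold or more, Tek (338 FPKM in CR and 157 FPKM in control) and Emcn (486 FPKM in CR and 200.4 FPKM in control), and 8 lay within 2-fold. Of 8 Schwann cell and nerve markers, 1 was higher in CR by 2-fold or more and 2 were lower by as much. The higher one, S100b, was listed at 42.3 FPKM in CR and 0 in control, and the lower ones were Sox10, listed at 0 in CR and 16.3 FPKM in control, and Ncam1, at 148 FPKM in CR and 307 FPKM in control. Of 6 macrophage markers, 2 were higher in CR by 2-fold or more, Mrc1 (77.8 FPKM in CR and 32.5 FPKM in control) and Cd14, listed at 28.0 FPKM in CR and 0 in control. The 1 macrophage marker on the lower side, Cd68, stood at 66.9 FPKM in CR and 99.7 FPKM in control.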
